A study of Mus musculus with 6 samples.

Results

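The protein phosphatase genes whose mouse symbols begin with Ppp and a digit were examined in RAW264.7 cells, a mouse macrophage-like line established after infection with Abelson leukaemia virus. Members were the protein-coding genes with such a symbol, chosen with earlier results of these data known. Ppp1r15a was left out. The count table held 65 of them among 24379 genes, with 11 catalytic subunits (a c after the class digit) and 54 regulatory subunits (an r). A further 9 such symbols of the annotation, among them Ppp1r3b, Ppp1r14a and Ppp3r2, were not analysed here.

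Gene expression had been measured by RNA sequencing in 3 libraries labelled as given high-fructose corn syrup (HFCS), which holds fructose and glucose as free sugars, and in 3 control libraries that the labels call WT. Both groups are the same line, sampled at 18 h. The stated dose is 140 mM in the titles and treatment labels and 170 mM in the source names. The sources used here do not give the medium of the control cells, any osmotic control or whether the replicates were separate cultures. The p-values therefore measure only how far these libraries spread, which may be technical. Total counts were 13108485 to 15340255 per library. Of the macrophage markers, 10 of 10 had counts. Their summed levels were 2470 to 2531 CPM (counts scaled to library size) in HFCS and 2084 to 2106 CPM in control libraries. Single markers went both ways. Lyz2 lay at 906 to 933 CPM in HFCS and 706 to 726 CPM in control libraries. Cd68 lay at 291 to 294 CPM in HFCS and 388 to 396 CPM in control libraries. Mertk was at 0 in the HFCS libraries and at most 0.282 CPM in the control libraries. Lists for T cells, B cells, fibroblasts, epithelium and neutrophils summed to at most 8.60 CPM in any library, that value in T cell markers and mostly from Lck. Control replicate 1 lay at 29.3 on the second principal component, while control replicates 2 and 3 lay at -14.2 and -13.4. On the same component HFCS replicate 3 lay at -18.9, apart from HFCS replicates 1 and 2 at 8.89 and 8.23. Every direction rests on the labels. Akr1b3, the aldose reductase gene known to be induced by hypertonic stress, was at the lower level in the HFCS libraries (log2 fold change -5.16).

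Ppp enzymes remove phosphate from serine and threonine. A few catalytic subunits serve many substrates, and the regulatory subunits choose the place, the substrate and the activity. PP1 binds its many partners mostly through short docking motifs. PP2A is built of a scaffold, a catalytic and one exchangeable B subunit. Calcineurin is switched on by calcium and calmodulin and acts on NFAT transcription factors. PP4, PP5 and PP6 are related enzymes, of which PP5 is a single chain bound by the chaperone HSP90. In macrophages such enzymes oppose the kinases of inflammatory signalling.

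The promoter sequences below belong to the 3 members with the highest log2 fold changes, Ppp1r10, Ppp1r18 and Ppp1r11, and to Ppp1r12b, the called member with the lowest. They are the 250 bases before the RefSeq start (GRCm38.p6) nearest to the deposited gene start, written 5′ to 3′ on the strand of the gene. For Ppp1r10 that start lies 762 bases inside the deposited gene, so its window lies there too. Capitals mark a GC box (GGGCGG) or a CCAAT box on either strand.
Ppp1r10, chr17:35916946-35917195, plus strand: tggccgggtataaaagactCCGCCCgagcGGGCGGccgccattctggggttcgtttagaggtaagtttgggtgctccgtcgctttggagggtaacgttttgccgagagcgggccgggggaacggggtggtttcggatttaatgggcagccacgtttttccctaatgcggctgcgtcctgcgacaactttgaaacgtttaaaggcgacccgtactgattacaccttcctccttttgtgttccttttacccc
Ppp1r18, chr17:35865345-35865594, plus strand: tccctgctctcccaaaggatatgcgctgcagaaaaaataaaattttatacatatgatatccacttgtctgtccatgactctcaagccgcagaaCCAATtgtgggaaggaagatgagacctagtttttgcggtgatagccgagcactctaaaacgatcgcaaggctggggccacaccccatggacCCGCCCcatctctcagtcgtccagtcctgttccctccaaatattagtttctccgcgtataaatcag
Ppp1r11, chr17:36951793-36952042, minus strand: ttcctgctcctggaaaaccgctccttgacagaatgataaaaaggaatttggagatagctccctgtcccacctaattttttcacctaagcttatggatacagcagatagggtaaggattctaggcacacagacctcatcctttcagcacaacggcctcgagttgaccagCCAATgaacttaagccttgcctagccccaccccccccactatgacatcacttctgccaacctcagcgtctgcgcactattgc
Ppp1r12b, chr1:134955941-134956190, minus strand: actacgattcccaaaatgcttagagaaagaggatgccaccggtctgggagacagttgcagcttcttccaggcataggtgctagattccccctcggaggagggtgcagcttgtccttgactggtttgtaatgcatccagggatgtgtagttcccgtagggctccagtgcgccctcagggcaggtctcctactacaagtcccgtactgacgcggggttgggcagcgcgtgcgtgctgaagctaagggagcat
The Ppp1r10 window held 2 GC boxes, the Ppp1r18 window 1 GC box and 1 CCAAT box, the Ppp1r11 window 1 CCAAT box, and the Ppp1r12b window neither. Over all 64 start windows of the 51 members in the RefSeq table, some of which overlap, 42 (65.6%) held a GC box, against 32.7% of 32851 windows of all genes. A CCAAT box was found in 19 (29.7%), against 33.8% of all windows. The NF-kB consensus was found in 1 of the 64 (1.56%), that of Ppp4r3b, against 3.90% of all windows. These are matches of letters only.

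After a filter on low counts, 55 of the 65 members could be tested, all 11 catalytic and 44 regulatory. Of these 55, 25 rose, 7 fell and 23 did not pass. A gene passed at an adjusted p under 0.05 by the quasi-likelihood test of edgeR, with Benjamini-Hochberg adjustment over all tested genes. In bulk libraries, fewer cells that carry a message and less of it per cell cannot be told apart. Members passed in 58.2% of cases, beside 44.9% of all 14360 tested genes. The median level was also higher, at 81.9 CPM in members and 27.0 CPM over all tested genes. The part of level in these shares was not tested. The higher members made up 45.5%, beside 22.4% of all genes, and the lower ones 12.7%, beside 22.5%. The HFCS and control libraries did not overlap for 35 members (63.6%), beside 54.5% of all genes. The median log2 fold change was 0.18 over the members and -0.0045 over all tested genes. At a log2 fold change of at least 0.58 in size, 8 members passed (14.5%), 7 higher and 1 lower, beside 22.4% of all genes. Among genes that passed, the median size was 0.45 on the log2 scale for members and 0.58 for all genes. Without control replicate 1, 27 members rose and 11 fell, beside 3860 higher and 3690 lower of all genes.

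The 10 members that could not be tested were all regulatory subunits and had 2 to 25 counts over the 6 libraries, with at most 8 in any library. Ppp1r1b, which codes for DARPP-32, the dopamine-regulated PP1 inhibitor of neurons, had 1 count over the HFCS and 2 over the control libraries. The neuronal actin-binding subunit Ppp1r9a had 2 counts over the HFCS and 6 over the control libraries. The B55 subunit gene Ppp2r2b had 1 count over the HFCS and 6 over the control libraries. In a single library, 3 counts correspond to 0.196 to 0.229 CPM, the floor taken for detection here.

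**Figure D1:**
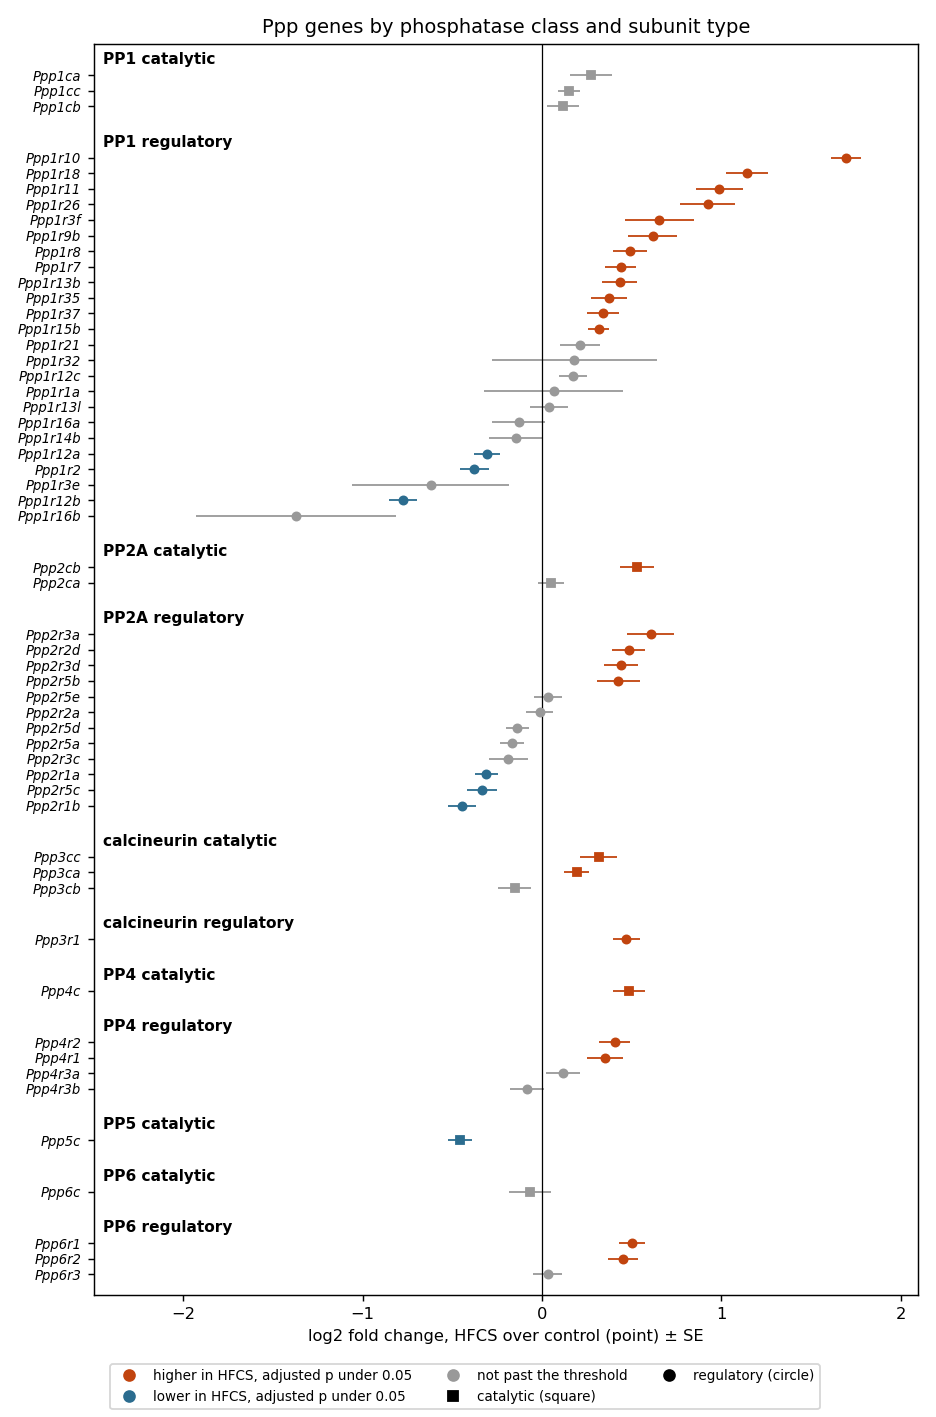
Log2 fold change of HFCS over control libraries (x axis, point ± SE, n = 3 each) for the 55 tested Ppp genes, grouped down the page by phosphatase class and subunit type. Squares are catalytic and circles regulatory subunits, and colour shows genes past an adjusted p of 0.05, 25 higher and 7 lower in HFCS. Catalytic subunits span -0.46 to 0.53 and regulatory subunits -1.37 to 1.69.

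Catalytic subunits stayed between -0.46 and 0.53 on the log2 scale. Of 11, 4 rose, 1 fell and 6 did not pass (45.5% passed, about the 44.9% of all tested genes), with a median log2 fold change of 0.15. Regulatory subunits passed in 27 of 44 cases (61.4%, beside the same 44.9%), 21 higher and 6 lower, with log2 fold changes of -1.37 to 1.69 and a median of 0.20. The median size of the log2 fold change was 0.19 in catalytic and 0.38 in regulatory subunits, and 0.33 over all tested genes. The median level was 126 CPM in catalytic and 66.9 CPM in regulatory subunits. The difference between the subunit types was not tested. Without HFCS replicate 2 or HFCS replicate 3, 2 catalytic genes rose in place of 4. Over all genes, 2644 and 2888 then rose in place of 3223. Without control replicate 1, 2 catalytic genes fell in place of 1, beside 3690 of all genes in place of 3224. After removal of the GC and length trends of the libraries, 7 catalytic genes rose, beside 3998 of all genes.

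The 3 catalytic genes of PP1 did not pass the test. Ppp1ca had 176, 161 and 152 CPM in the HFCS libraries, against 165, 118 and 122 CPM in the control libraries. The control libraries differed among themselves for this gene, with replicate 1 within the HFCS range. Its log2 fold change was 0.27 ± 0.12 (SE, edgeR adjusted p = 0.0840), and without control replicate 1 it was 0.44 and passed (edgeR adjusted p = 7.7e-05). Ppp1cc had 163, 161 and 159 CPM in the HFCS libraries, against 143, 141 and 151 CPM in the control libraries. Its groups did not overlap, but the log2 fold change of 0.15 did not pass (edgeR adjusted p = 0.0674), though it did without control replicate 1 (0.0477). Ppp1cb averaged 193 ± 11.0 CPM in HFCS libraries, against 178 ± 20.2 CPM in control libraries (SD, n = 3). It was at 0.12 on the log2 scale (edgeR adjusted p = 0.303) and passed after removal of the GC and length trends (0.24, edgeR adjusted p = 0.00125). Ppp1ca shares its position with Rad9a on the other strand, which had 2529 counts over the HFCS and 1445 over the control libraries. The processed pseudogene Ppp1ccb, listed under its own identifier, had 540 and 391 counts over the HFCS and the control libraries, so the level of Ppp1cc is uncertain to that extent.

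PP1's 3 nuclear subunits all passed as higher in the HFCS libraries, beside 22.4% of all tested genes. Ppp1r10 was the member with the highest fold change. Ppp1r10 (ENSMUSG00000039220, mm10 chromosome 17, 35916434 to 35932283, plus strand) codes for PNUTS, which brings PP1 to chromatin and to RNA polymerase II at transcription termination. It had 129, 121 and 126 CPM in the HFCS libraries, against 41.0, 34.4 and 40.5 CPM in the control libraries. Each HFCS library was at about the same level, far above every control library. The log2 fold change was 1.69 ± 0.084 (SE, edgeR adjusted p = 2.4e-07), and 174 of all tested genes passed with a higher one. Ppp1r8, which codes for the nuclear inhibitor NIPP1, had 67.6, 59.3 and 58.7 CPM in the HFCS libraries, against 48.8, 41.0 and 42.1 CPM in the control libraries, a log2 fold change of 0.49 (edgeR adjusted p = 0.00180). Ppp1r7, which codes for SDS22, a conserved PP1 binding partner, had 106 ± 4.13 CPM in HFCS libraries, against 78.1 ± 8.07 CPM in control libraries, a log2 fold change of 0.44 (edgeR adjusted p = 0.00179). Of these 3, Ppp1r7 overlaps Pask on the other strand, which had 3644 counts over the HFCS and 2957 over the control libraries.

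Both tested subunits that bind actin rose, beside 22.4% of all tested genes. Ppp1r18 (ENSMUSG00000034595, chromosome 17, 35865593 to 35875596, plus strand) codes for phostensin, which directs PP1 to actin filaments. It had 189, 189.6 and 176 CPM in the HFCS libraries, against 102, 69.6 and 79.1 CPM in the control libraries. Control replicate 1 was the highest of its group, and all 3 lay below the HFCS libraries. HFCS over control gave 1.15 ± 0.12 (SE, edgeR adjusted p = 3.3e-05) on the log2 scale. Its antisense gene Ppp1r18os had 24 counts over the HFCS and 17 over the control libraries. Ppp1r9b, which codes for the scaffold spinophilin, had 130.4, 131 and 110.0 CPM in the HFCS libraries, against 102, 68.4 and 71.6 CPM in the control libraries. Its log2 fold change was 0.62 ± 0.14 (SE, edgeR adjusted p = 0.00429), and the nearest libraries were HFCS replicate 3 and control replicate 1.

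The myosin-targeting subunits, which bring PP1 to the myosin light chain, were the PP1 group with more lower than higher members. In this group 2 of 5 fell and 3 did not pass (40% passed, near the 44.9% of all tested genes), at a median log2 fold change of -0.31. Ppp1r12b (ENSMUSG00000073557, chromosome 1, 134754658 to 134955942, minus strand), which codes for MYPT2, had 37.8, 41.5 and 39.4 CPM in the HFCS libraries, against 64.6, 68.8 and 70.0 CPM in the control libraries. The 3 libraries of each group lay close together, and the groups were well apart. This gave a log2 fold change of -0.78 ± 0.078 (SE, edgeR adjusted p = 2.8e-05). Ppp1r12a, which codes for the ubiquitous MYPT1, had 113, 111 and 113 CPM in the HFCS libraries, against 129, 152 and 136 CPM in the control libraries. It fell by 0.31 on the log2 scale (edgeR adjusted p = 0.00618). The relative Ppp1r12c was at 0.17 (edgeR adjusted p = 0.0870) and passed as higher without control replicate 1 (0.25, 0.00343). Ppp1r16a was at -0.13, and Ppp1r16b, at 0.654 CPM in HFCS and 1.67 CPM in control libraries, was too low for a firm value (-1.37, edgeR adjusted p = 0.0676), though it passed as lower without HFCS replicate 1 or control replicate 1.

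The small PP1 inhibitors moved apart. Ppp1r11 (ENSMUSG00000036398, chromosome 17, 36948356 to 36951741, minus strand), which codes for inhibitor-3, had 48.5, 51.5 and 41.7 CPM in the HFCS libraries, against 28.4, 22.5 and 20.3 CPM in the control libraries. The HFCS libraries lay above all control libraries. Their log2 fold change was 0.99 ± 0.13 (SE, edgeR adjusted p = 1.7e-04). Ppp1r2, which codes for inhibitor-2, had 74.4, 63.9 and 75.7 CPM in the HFCS libraries, against 91.1, 94.2 and 92.3 CPM in the control libraries. It fell by 0.38 on the log2 scale (edgeR adjusted p = 0.00306). Ppp1r2 has processed pseudogenes, of which 4 were listed with 2 to 72 counts over all libraries, so its reads may be split. Ppp1r14b, a relative of the myosin phosphatase inhibitor CPI-17, had 161, 149.8 and 129.6 CPM in the HFCS libraries, against 208, 133 and 146 CPM in the control libraries. Control replicate 1 stood apart from the other libraries, the log2 fold change was -0.15 (edgeR adjusted p = 0.447), and without that library it was 0.077. Ppp1r1a, at under 1.2 CPM in every library, was at 0.065.

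Other PP1 partners that passed were all higher in the HFCS libraries. Ppp1r15b, which codes for CReP, the constitutive subunit that directs PP1 to the translation factor eIF2 alpha, was the one with the highest level per kilobase of exon among them, with 339, 337 and 339.7 CPM in the HFCS libraries, against 278, 271 and 266 CPM in the control libraries. The spread within each group was small, and the log2 fold change was 0.32 ± 0.059 (SE, edgeR adjusted p = 0.00141). Ppp1r26, which codes for a PP1-binding protein, had 15.4, 14.8 and 14.2 CPM in the HFCS libraries, against 7.77, 6.31 and 9.25 CPM in the control libraries, a log2 fold change of 0.92 ± 0.15 (SE, edgeR adjusted p = 6.9e-04). The p53-binding ASPP1 gene Ppp1r13b rose by 0.43 on the log2 scale (edgeR adjusted p = 0.00434), and overlaps Zfyve21 on the other strand (324 counts over the HFCS and 229 over the control libraries). Its inhibitory relative Ppp1r13l was at 0.041 (edgeR adjusted p = 0.777), a direction that turned to -0.016 without control replicate 3. Ppp1r35, whose product acts in centriole assembly, and Ppp1r37 rose by 0.38 and 0.34, while Ppp1r21 (0.21) and Ppp1r32 (0.18) did not pass. Of the glycogen-targeting subunits, 2 of 4 could be tested. Ppp1r3f had 6.09, 4.77 and 6.27 CPM in the HFCS libraries, against 4.02, 3.38 and 3.46 CPM in the control libraries, a log2 fold change of 0.66 ± 0.19 (SE, edgeR adjusted p = 0.0178). Its call was lost with any of 4 libraries left out, where the edgeR adjusted p was 0.0606 without HFCS replicate 1, 0.0608 without HFCS replicate 3, 0.0528 without control replicate 2 and 0.0519 without control replicate 3. It overlaps the antisense gene Flicr, which had 133 counts over the HFCS and 93 over the control libraries. Ppp1r3e did not pass (-0.62).

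**Figure D2:**
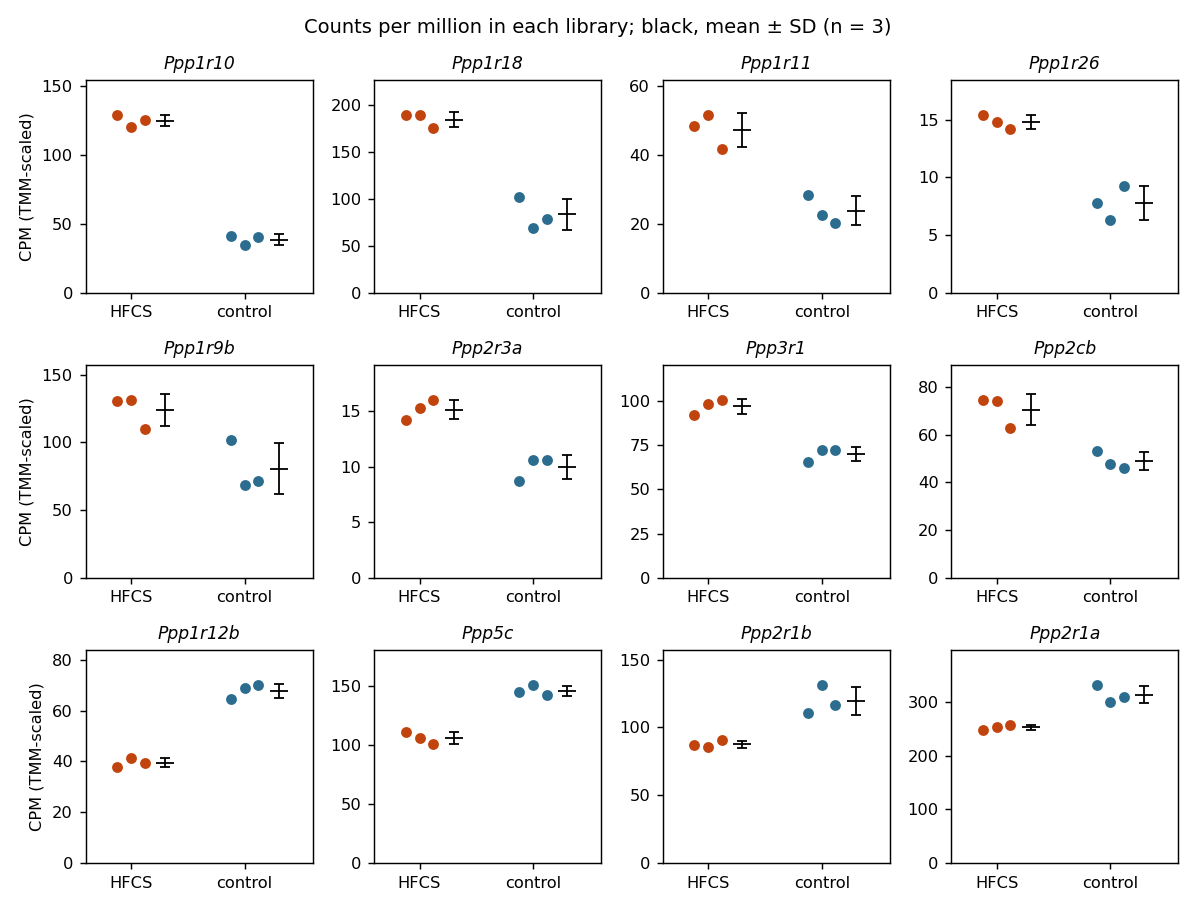
CPM (y axis, from 0), in each HFCS and control library for 12 Ppp genes, with the mean ± SD (n = 3) in black beside each group. In the first 8 panels every HFCS library is above every control library, as for Ppp1r10 at 121 to 129 CPM in HFCS and 34.4 to 41.0 CPM in control libraries. In the last 4 every HFCS library is below every control library.

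PP2A showed lower scaffold messages and a higher level of one of its catalytic messages in the HFCS libraries. Both scaffold genes fell, beside 22.5% of all tested genes. Ppp2r1a had 249, 254 and 257 CPM in the HFCS libraries, against 332, 301 and 309.9 CPM in the control libraries, a log2 fold change of -0.31 ± 0.064 (SE, edgeR adjusted p = 0.00258). Ppp2r1b had 87.3, 85.3 and 90.4 CPM in the HFCS libraries, against 110.2, 131 and 117 CPM in the control libraries, a log2 fold change of -0.44 ± 0.078 (SE, edgeR adjusted p = 9.9e-04). For both, no HFCS library reached the lowest control library. Ppp2r1b overlaps Sik2 on the other strand, which had 2617 counts over the HFCS and 9391 over the control libraries. The sources used here give no strand setting for the counting, so the share of those reads in Ppp2r1b was not tested. The catalytic gene Ppp2ca had 220.5, 213 and 220.0 CPM in the HFCS libraries, against 189, 217 and 225 CPM in the control libraries. Its groups overlapped, with a log2 fold change of 0.050 (edgeR adjusted p = 0.616) that turned to -0.018 without control replicate 1. Ppp2cb had 74.4, 74.2 and 62.9 CPM in the HFCS libraries, against 53.0, 47.5 and 45.8 CPM in the control libraries, a log2 fold change of 0.53 ± 0.093 (SE, edgeR adjusted p = 0.00100). Per kilobase of annotated exon, the ratio of Ppp2cb to Ppp2ca within a library was 1.65 ± 0.169 in HFCS libraries, against 1.19 ± 0.208 in control libraries (mean ± SD, n = 3 each). In an exact two-sided permutation test it gave p = 0.1, the smallest that 3 libraries against 3 allow, and 0.138 after Benjamini-Hochberg adjustment over 11 ratios that were chosen with the values known.

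The B subunits of PP2A, which choose its substrates, went both ways. Of the B56 genes, Ppp2r5b rose, Ppp2r5c fell and 3 did not pass (40% passed, near the 44.9% of all tested genes). Ppp2r5c, the most abundant of them in every library in CPM and per kilobase of exon, had 221, 228 and 245 CPM in the HFCS libraries, against 256, 314 and 304 CPM in the control libraries. The log2 fold change was -0.33 ± 0.084 (SE, edgeR adjusted p = 0.00835), and without HFCS replicate 1 it did not pass (edgeR adjusted p = 0.0526). Ppp2r5b, the least abundant, had 23.0, 23.4 and 19.5 CPM in the HFCS libraries, against 17.8, 15.0 and 16.1 CPM in the control libraries. The log2 fold change was 0.42 ± 0.12 (SE, edgeR adjusted p = 0.0144), but the adjusted p was 0.052, 0.0619 and 0.0505 without HFCS replicate 1, HFCS replicate 2 and control replicate 2. Ppp2r5a (-0.16) and Ppp2r5d (-0.14) had HFCS libraries below all control libraries without passing, and Ppp2r5e was at 0.033. Of the B55 genes, Ppp2r2d, whose product opposes mitotic entry in Xenopus egg extracts, had 58.2, 53.4 and 62.2 CPM in the HFCS libraries, against 42.6, 37.5 and 44.3 CPM in the control libraries. Its log2 fold change was 0.48 ± 0.093 (SE, edgeR adjusted p = 0.00179). Ppp2r2a, the B55 gene with the higher level per kilobase of exon in both groups, was at -0.013 (edgeR adjusted p = 0.903), with a direction that turned to 0.067 when libraries were scaled by totals alone. Among the calcium-binding PR72-type genes, Ppp2r3a (0.61, edgeR adjusted p = 0.00354) and Ppp2r3d (0.44, 0.00334) rose. Ppp2r3a had 14.2, 15.2 and 16.0 CPM in the HFCS libraries, against 8.67, 10.6 and 10.6 CPM in the control libraries, and Ppp2r3c did not pass (-0.19) except without control replicate 1 (-0.30, edgeR adjusted p = 0.00519).

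Calcineurin's regulatory subunit was higher in the HFCS libraries. Ppp3r1, which codes for the calcium-binding calcineurin B, had 92.3, 98.6 and 100.5 CPM in the HFCS libraries, against 65.5, 72.2 and 72.6 CPM in the control libraries. The groups did not overlap, and the log2 fold change was 0.47 ± 0.074 (SE, edgeR adjusted p = 4.9e-04). It overlaps Wdr92 on the same strand, which had 1223 counts over the HFCS and 1241 over the control libraries. Of the catalytic genes, Ppp3cc had 36.8, 40.3 and 39.8 CPM in the HFCS libraries, against 28.3, 30.0 and 35.4 CPM in the control libraries. Its log2 fold change was 0.32 ± 0.10 (SE, edgeR adjusted p = 0.0278), and the call was lost without HFCS replicate 2 (edgeR adjusted p = 0.0868), HFCS replicate 3 (0.0664) or control replicate 2 (0.0803). It overlaps the antisense gene Gm49417, which had 118 counts over the HFCS and 62 over the control libraries. Ppp3ca had 127, 131 and 124 CPM in the HFCS libraries, against 103, 116 and 116 CPM in the control libraries. Its log2 fold change was 0.19 ± 0.070 (SE, edgeR adjusted p = 0.0437), just past the threshold, and the adjusted p was 0.0724 in DESeq2, 0.0831 with upper-quartile scaling and 0.0557 to 0.127 without any of 5 libraries in turn. Ppp3cb had 167, 164 and 166 CPM in the HFCS libraries, against 157, 202 and 195 CPM in the control libraries. It did not pass (-0.15, edgeR adjusted p = 0.192), but fell without control replicate 1 (-0.25, 0.00135). Within a library and per kilobase of exon, the ratio of Ppp3ca to Ppp3cb was 0.678 ± 0.0241 in HFCS libraries, against 0.536 ± 0.0388 in control libraries, and that of Ppp3cc to Ppp3cb was 0.692 ± 0.0387 in HFCS libraries, against 0.502 ± 0.0551 in control libraries. Both ratios had groups that did not overlap (exact permutation p = 0.1 each, adjusted 0.138).

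Of 5 tested PP4 genes, 3 passed, all of them higher (60%, beside 44.9% of all tested genes). The catalytic gene Ppp4c had 97.1, 96.5 and 83.1 CPM in the HFCS libraries, against 72.3, 63.7 and 61.8 CPM in the control libraries, a log2 fold change of 0.48 ± 0.089 (SE, edgeR adjusted p = 0.00136). Its regulatory partners Ppp4r2 and Ppp4r1 rose by 0.41 (edgeR adjusted p = 0.00339) and 0.35 (0.0152), and Ppp4r1 did not pass without HFCS replicate 3 (0.0617). The substrate-binding subunits Ppp4r3a (0.12) and Ppp4r3b (-0.082) did not pass, though Ppp4r3a did after removal of the GC and length trends (0.33, edgeR adjusted p = 4.7e-04). For PP6, the catalytic gene Ppp6c had 69.6, 63.4 and 82.0 CPM in the HFCS libraries, against 63.0, 81.7 and 80.3 CPM in the control libraries. The groups overlapped, with a log2 fold change of -0.065 (edgeR adjusted p = 0.685) that turned to 0.015 with scaling by library totals. Its SAPS-domain subunits Ppp6r1 and Ppp6r2 rose. Ppp6r1 had 188, 168 and 182 CPM in the HFCS libraries, against 133, 118 and 128 CPM in the control libraries, a log2 fold change of 0.50 ± 0.074 (SE, edgeR adjusted p = 3.2e-04). Ppp6r2 was at 0.45 (edgeR adjusted p = 0.00128) and Ppp6r3 at 0.032 (0.781).

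PP5 had the only catalytic gene that fell with all libraries in the fit. Ppp5c (chromosome 7, 17004640 to 17027924, minus strand) had 111, 106 and 101 CPM in the HFCS libraries, against 144, 150.1 and 142 CPM in the control libraries. Every HFCS library lay below every control library. The log2 fold change was -0.46 ± 0.066 (SE, edgeR adjusted p = 2.9e-04), and it passed in all 15 alternatives tried.

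Levels of different genes were compared per kilobase of annotated exon. By that measure, Ppp1ca was the most abundant catalytic message in both groups, at 64.5 ± 4.69 in HFCS libraries, against 53.4 ± 10.3 in control libraries (CPM per kilobase, mean ± SD, n = 3 each). Ppp1cc was at 47.0 ± 0.669 in HFCS libraries, against 42.3 ± 1.45 in control libraries. Ppp2cb was at 47.9 ± 4.49 in HFCS libraries, against 33.1 ± 2.55 in control libraries. Ppp5c stood at 33.7 ± 1.59 in HFCS libraries, against 46.3 ± 1.37 in control libraries. In the HFCS libraries Ppp2cb and Ppp1cc did not differ beyond their spread. In the control libraries Ppp1ca and Ppp5c overlapped, and both lay above every value of Ppp1cc. Ppp2ca was at 29.1 ± 0.527 in HFCS libraries, against 28.0 ± 2.54 in control libraries. The remaining 6, Ppp4c, Ppp3cb, Ppp1cb, Ppp6c, Ppp3cc and Ppp3ca, lay between 10.4 and 21.5, with Ppp3ca lowest in HFCS and Ppp3cc lowest in control libraries. Of the summed catalytic level, PP1 took 40.1 ± 0.437% in HFCS and 38.1 ± 2.45% in control libraries. PP2A took 23.9 ± 0.715% in HFCS and 20.8 ± 0.165% in control libraries, and calcineurin 13.9 ± 0.547% in HFCS and 14.5 ± 1.57% in control libraries. The PP5 share was the one that was lower in HFCS libraries with no overlap in mean ± SD, at 10.5 ± 0.174% in HFCS and 15.7 ± 0.532% in control libraries. PP4 took 6.67 ± 0.406% in HFCS and 5.22 ± 0.400% in control libraries, and PP6 held 5.01 ± 0.786% in HFCS and 5.73 ± 0.835% in control libraries. Such levels depend on the length used. Per kilobase of the longest coding transcript, PP2A took 15.3 ± 0.398% in HFCS and 13.4 ± 0.179% in control libraries. Calcineurin took 17.5 ± 0.659% in HFCS and 18.7 ± 2.13% in control libraries by that length, and PP5 9.94 ± 0.146% in HFCS and 15.0 ± 0.513% in control libraries. PP4 took 12.8 ± 0.746% in HFCS and 10.1 ± 0.732% in control libraries by that length, above PP5 in the HFCS libraries and below it in the control libraries. Its gene Ppp4c then stood at 65.8 ± 5.63 in HFCS libraries, against 47.0 ± 3.97 in control libraries, above Ppp2cb at 47.9 ± 4.49 in HFCS libraries, against 33.1 ± 2.55 in control libraries. Ppp6c was then the lowest in HFCS libraries, at 17.4. Ppp1cc was then at 67.5 ± 0.961 in HFCS libraries, above Ppp2cb, and Ppp5c at 51.0 ± 2.40 also had a higher mean than Ppp2cb there. Ppp3cb at 43.3 ± 0.377 and Ppp1cb at 32.3 ± 1.85 had higher means than Ppp2ca at 30.6 ± 0.555 in these libraries. The order of Ppp4c, of several other catalytic genes, of the lowest genes and of PP2A and calcineurin thus depended on the length used. The PP5 share was lower and the PP4 share higher in HFCS libraries by both lengths.

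**Figure D3:**
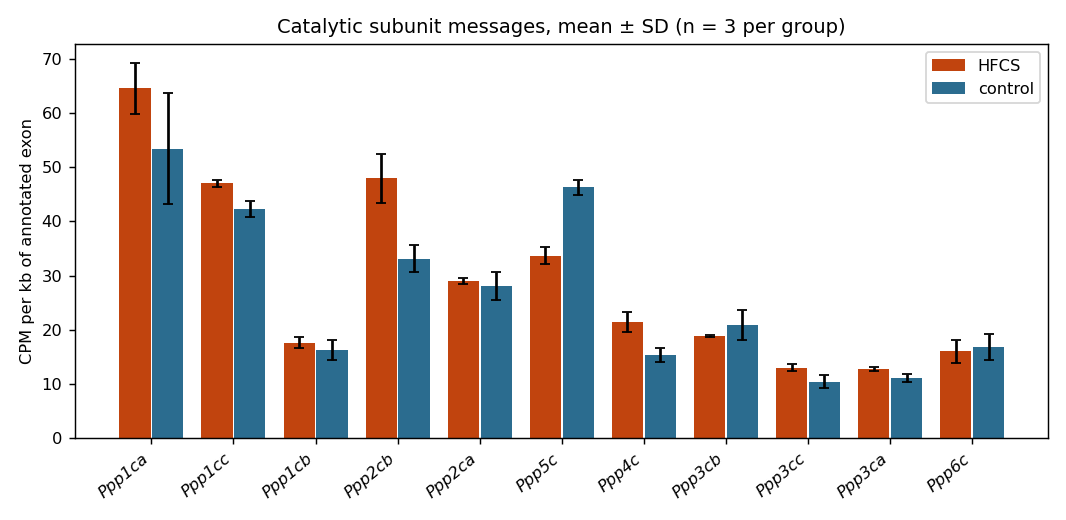
Level of each catalytic message in CPM per kilobase of annotated exon (y axis, from 0; bars are means, whiskers SD, n = 3) in HFCS (left bar) and control (right bar) libraries. Ppp2cb stands at 47.9 in HFCS and 33.1 in control libraries, and Ppp5c at 33.7 in HFCS and 46.3 in control libraries.

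Partners of these enzymes that carry other names were read from a list of 42 genes, of which 36 were tested, 4 were too low and 2 were not analysed here. Of the 36, 8 rose, 12 fell and 16 did not pass (55.6% passed, beside 44.9% of all genes), with a median log2 fold change of -0.077. The chaperone genes of PP5 were lower along with Ppp5c. Hsp90ab1 had 1518, 1532 and 1435 CPM in the HFCS libraries, against 2617, 2564 and 2504 CPM in the control libraries. Its log2 fold change was -0.78 ± 0.059 (SE, edgeR adjusted p = 4.7e-06). Hsp90aa1 fell by 0.74 on the log2 scale (edgeR adjusted p = 1.2e-04), and their partner Cdc37 did not pass (-0.076). Among calcineurin partners, Rcan1, a feedback inhibitor that calcineurin itself is known to induce, had 38.9, 36.0 and 35.8 CPM in the HFCS libraries, against 18.2, 22.7 and 22.5 CPM in the control libraries, a log2 fold change of 0.80 ± 0.11 (SE, edgeR adjusted p = 2.0e-04). The NFAT gene Nfatc1 fell to 76.7 ± 1.41 CPM in HFCS, against 125 ± 6.35 CPM in control libraries (-0.71, edgeR adjusted p = 2.1e-05). Calm2, one of the calmodulin genes, rose by 0.58 and Nfatc3 by 0.37.

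Among partners of PP2A and its relatives, Igbp1, which codes for the catalytic-subunit chaperone alpha4, had 46.8, 51.1 and 50.8 CPM in the HFCS libraries, against 78.7, 80.6 and 79.5 CPM in the control libraries, a log2 fold change of -0.68 ± 0.072 (SE, edgeR adjusted p = 3.7e-05). Cip2a, an inhibitor of PP2A, was at -0.82 (edgeR adjusted p = 2.8e-04), and the inhibitor genes Set and Anp32a were at -0.37 (8.2e-04) and -0.18 (0.0391). Lcmt1, which methylates the PP2A catalytic subunit, and Mastl, the kinase upstream of its mitotic inhibitors, fell by 0.48 and 0.62. The striatin genes Strn4 and Strn, whose products bind PP2A as B subunits, rose by 0.53 (edgeR adjusted p = 1.4e-04) and 0.40 (0.00129). Their relative Strn3 did not pass (0.17, edgeR adjusted p = 0.244). Neither did the partner genes Ptpa (0.069), Ppme1 (0.070), Tiprl (-0.053), Ensa (0.11) and Arpp19 (0.38). Of the ankyrin subunits of PP6, Ankrd52 (0.41, edgeR adjusted p = 7.5e-04) and Ankrd44 (0.30, 0.00938) rose and Ankrd28 (-0.31, 0.0267) fell. Wdr82, which forms a complex with PNUTS and PP1, rose by 0.28 (edgeR adjusted p = 0.0124), and Tox4 of the same complex did not pass (-0.13).

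Deviations of single libraries followed GC content, with Spearman's rho across genes of 0.51 in control replicate 1 and -0.41 in control replicate 2. Across the 55 members, the log2 fold change had a rho of 0.16 with GC content and -0.14 with exon length, values that describe genes sharing the same libraries. The part of such trends in single members was not tested beyond the fit that removed them, in which 29 members rose and 10 fell, beside 3998 higher and 3352 lower of all 14360 genes (54.4% of calls higher). In all 15 alternatives and the fit reported here, 26 of the 32 members passed in the same direction, 20 higher and 6 lower. The matching share over all tested genes is not given here, so these members cannot be called more stable than other genes. The 6 lower ones were Ppp1r12a, Ppp1r12b, Ppp1r2, Ppp2r1a, Ppp2r1b and Ppp5c. The remaining 6 calls, lost in at least one alternative, were Ppp1r3f, Ppp2r5b, Ppp2r5c, Ppp3ca, Ppp3cc and Ppp4r1.

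**Figure D4:**
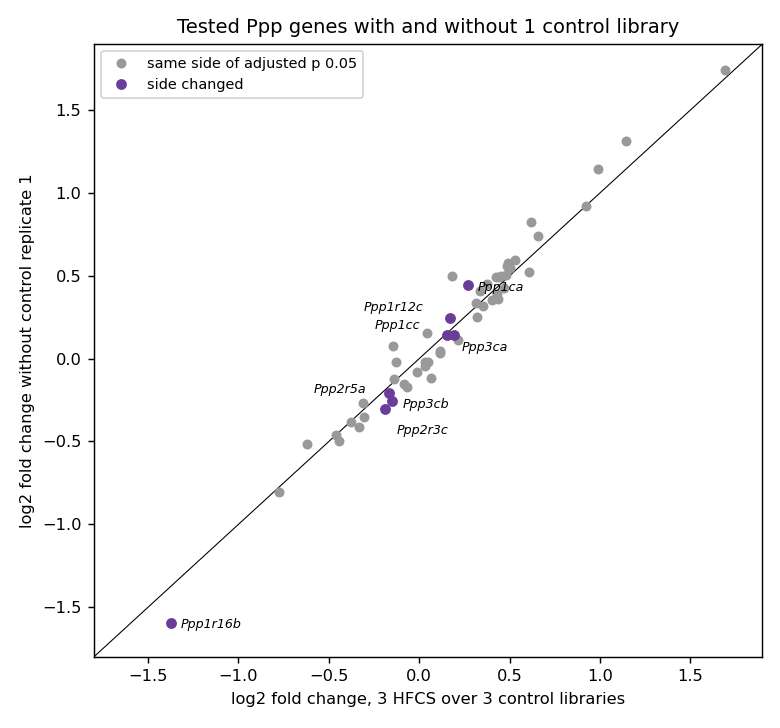
Log2 fold change of each of the 55 tested Ppp genes with all 3 control libraries (x axis) and without control replicate 1 (y axis), with the line of equal values. Purple points are the 8 genes that changed side of an adjusted p of 0.05, and 7 of these passed only without that library.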

How the data were processed

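The deposited values are raw counts of reads per gene in 6 libraries. Per the submitters' processing notes, CASAVA, HISAT2 2.0.5 and featureCounts 1.5.0-p3 were used on mm10. The annotation release, strand setting and filters: not given in the sources used here. Symbols came from GENCODE release 21 of the mouse series (M21), which held 24344 of 24379 identifiers, 23651 with the same coordinates (62 of the 65 members). Of the members, 32 overlap another listed gene.

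Genes were kept by edgeR's filterByExpr (minimum count 10), which left 14360 and removed 10019. Libraries were scaled by TMM and compared by edgeR 4.0.16 (R 4.3.3) with glmQLFit and glmQLFTest, no covariate, over the whole table, and Benjamini-Hochberg adjustment covered all tested genes. CPM used the scaled library sizes. SE was the size of the fold change (log2) divided by the square root of F. Alternatives were other scalings, DESeq2 1.42.0, limma-voom 3.58.1, other filters, the replicate number as a block and each library left out. Removal of GC and length trends (loess, span 0.3) was chosen after seeing the data. Counts were simulated for 14360 genes, 200 of them changed, and 13900 genes passed the filter and were tested. Among tested genes, the test recovered 68.8% of 48 changed 1.5-fold and 75.0% of 48 changed 2-fold. Changed genes lost to the filter are not in these rates. Of its 166 calls, 8 (4.82%) were false. In the reported fit 44.9% of all tested genes passed, so these rates describe a setting with far fewer changed genes. No libraries agreed within sampling noise (chi-square per degree of freedom 2.71 to 18.6 within groups). Intervals are not given, and the floor of 3 counts covers counting error only.

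Named genes were every catalytic member, every member past the threshold with a log2 fold change of at least 0.58 in size, the member with the smallest adjusted p in each subunit group, and the 8 partner genes with the smallest adjusted p. Other members and partners were named after their values were seen. The members and lists were chosen with earlier results of these data known.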

Additional observations from a re-analysis of the deposited data

How the results depend on the processing

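Over all genes, scaling by library totals alone gave 3975 higher and 2624 lower genes (60.2% higher in place of 50.0%) and moved the median log2 fold change to 0.08, with 28 members higher and 7 lower. Between 21 and 27 members rose and 7 to 11 fell with each library left out, 2 to 5 catalytic genes rose and 1 to 2 fell. Without control replicate 1, 3860 genes were higher and 3690 lower. The catalytic median of 0.15 was 0.14 to 0.19 and the regulatory median of 0.20 was 0.20 to 0.28 with each library left out. The catalytic and regulatory medians were 0.12 and 0.17 with upper-quartile scaling, 0.23 and 0.28 with library totals, 0.19 and 0.23 with no filter on low counts, and 0.22 and 0.24 with the GC and length trend removed, which raised the catalytic genes called higher to 7. Ppp1ca and Ppp1cc passed with library totals and with the trend removed. The cause was not tested. Depth limits the members with few counts, of which Ppp1r1a, Ppp1r3e, Ppp1r32 and Ppp1r16b had standard errors of 0.388, 0.438, 0.459 and 0.559 on the log2 scale.

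Directions that turned were all of genes that did not pass. Ppp2r2a turned to 0.067 with library totals, 0.022 with no filter, 0.030 with the trend removed, and as high as 0.045 with a library left out. Ppp6c turned to 0.015 with library totals, 0.070 with the trend removed and up to 0.028 with a library left out, and Ppp1r13l to -0.016 with the trend removed. With each library left out, values ran from -0.016 to 0.15 for Ppp1r13l, -0.27 to 0.077 for Ppp1r14b, -0.15 to 0.21 for Ppp1r1a, -0.039 to 0.53 for Ppp1r32, -0.018 to 0.11 for Ppp2ca, -0.080 to 0.045 for Ppp2r2a, -0.018 to 0.099 for Ppp2r5e, -0.17 to 0.028 for Ppp6c and -0.046 to 0.086 for Ppp6r3.

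Whether the replicate numbers pair the libraries was not settled. Deviations of same-numbered libraries correlated at 0.167, -0.0640 and 0.191 for replicates 1, 2 and 3. In 2 of 3 cases an HFCS library correlated best with its own number. With the replicate number as a block, 27 members rose and 9 fell, 5 catalytic genes rose and 1 fell, and 3619 genes were higher and 3533 lower. Ppp1ca (edgeR adjusted p = 0.0042), Ppp1r12c, Ppp1r16b and Ppp2r5a passed with the block only, against the fit without it.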

Other observations

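The 3 members with the highest log2 fold changes, Ppp1r18, Ppp1r10 and Ppp1r11, lie within 1086 kb of each other on chromosome 17 (mm10, 35865593 to 36951741), in the histocompatibility region. This window was chosen after the values were seen. Of the 16 other tested genes between them, 2 rose, 4 fell and 10 did not pass an edgeR adjusted p of 0.05. The median log2 fold change of these 16 was -0.054, and 37.5% of them passed, beside 44.9% of all tested genes. The 2 that rose were Trim26 (0.33) and Rpp21 (0.42). Next to Ppp1r10, Mrps18b was at 0.062 and Abcf1 at -0.065, and neither passed. The genes of this window that fell were 2310061I04Rik (-0.56) and the non-classical class I genes H2-T24 (-1.58), H2-T23 (-1.52) and H2-T22 (-0.40). H2-T23, which codes for Qa-1, averaged 18.4 CPM in HFCS and 52.3 CPM in control libraries. Over the whole chromosome, 180 of 725 tested genes rose and 144 fell (44.7% passed, about the 44.9% of all tested genes).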
